A study of Mus musculus with 20 samples.

Results

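The uptake, storage and export of iron were followed in murine breast cancer through 10 genes, chosen by name out of 45706 genes counted. They comprise 4 genes of uptake (Tfrc, Slc11a2, Steap3 and Steap4), 3 of storage (Fth1, Ftl1 and Ncoa4), the exporter Slc40a1 and the regulators Aco1 and Ireb2. RNA was sequenced from tumors and from cultured tumor cells of mice that carry the PyMT oncogene, in which the lysosomal protease cathepsin D (CTSD) was present or deleted. The tumors came from mice of 18 weeks on a C57BL/6N background, 4 with MMTV-cre and deleted Ctsd (Ctsd-/-) and 4 controls. The labels call the controls wild type, and the study's methods count as such any mouse competent for CTSD, whether its Ctsd alleles are untargeted (+) or floxed (fl). MMTV-cre deletes in the mammary epithelium, so that stromal and immune cells of a Ctsd-/- tumor still carry the gene. The cells were lines that immortalised spontaneously from end-stage tumors of 1 Ctsd+/+ mouse and 1 MMTV-cre;Ctsd-/- mouse. Each line was sampled as 3 cultures after 10 days in medium with 1% fetal calf serum (1% FCS) and as 3 cultures after 12 weeks in it (1% FCS LT). Since each genotype is 1 line from 1 mouse, genotype and line cannot be told apart in the cells, and p-values there measure the spread between cultures.

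Transferrin-bound iron enters a cell through transferrin receptor 1 (Tfrc) by endocytosis. It is released in the acidic endosome, reduced by STEAP metalloreductases (Steap3, Steap4) and moved into the cytosol by the divalent metal transporter (Slc11a2). Iron that is not used is stored in the ferritin shell, built of heavy (Fth1) and light chains (Ftl1), and is recovered when NCOA4 takes ferritin to the lysosome, while ferroportin (Slc40a1) exports iron from the cell. The iron regulatory proteins 1 (Aco1) and 2 (Ireb2) bind hairpins called iron responsive elements when iron is short, which blocks translation where the hairpin lies in the 5′ untranslated region (UTR) and stabilises the transcript where it lies in the 3′ UTR. Aco1 is a cytosolic aconitase when it holds an iron-sulfur cluster.

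Matches to a hairpin pattern are shown because they divide the 10 genes by a feature other than their level. The pattern searched in the UTRs of the annotated transcripts was a C, an arm of 5 bases, the loop CAGTGN and a second arm of 5 bases that pairs with the first, with G-T pairs allowed. It was found 7 times in 4 of the 10 genes, once each in the 5′ UTR of Fth1, Ftl1 and Slc40a1 and 4 times in the 3′ UTR of Tfrc. In the whole annotation 28 of 20874 genes with a 5′ UTR (0.134%) and 127 of 20981 genes with a 3′ UTR (0.605%) hold it. A match describes these letters only, and the other 6 genes lack them in the UTRs searched. A hairpin of another form, such as one with an unpaired base in an arm, would be missed. The other 6 genes are therefore not shown to lack iron responsive elements. Each is printed 5′ to 3′ on the transcript's strand with 6 further bases on either side, and the loop stands in capitals. In GRCm38 the site of Fth1 lies at chr19:9982732-9982760 on the plus strand, that of Ftl1 at chr7:45459779-45459807 on the minus strand and that of Slc40a1 at chr1:45925465-45925493 on the minus strand. The sites of Tfrc lie on the plus strand at chr16:32631219-32631247, chr16:32631598-32631626, chr16:32631663-32631691 and chr16:32631710-32631738.
Fth1: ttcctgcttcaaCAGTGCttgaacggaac
Ftl1: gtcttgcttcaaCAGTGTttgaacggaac
Slc40a1: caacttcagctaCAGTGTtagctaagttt
Tfrc site 1: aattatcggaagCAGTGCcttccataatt
Tfrc site 2: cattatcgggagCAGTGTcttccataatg
Tfrc site 3: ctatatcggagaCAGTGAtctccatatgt
Tfrc site 4: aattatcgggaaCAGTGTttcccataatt

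**Figure D1:**
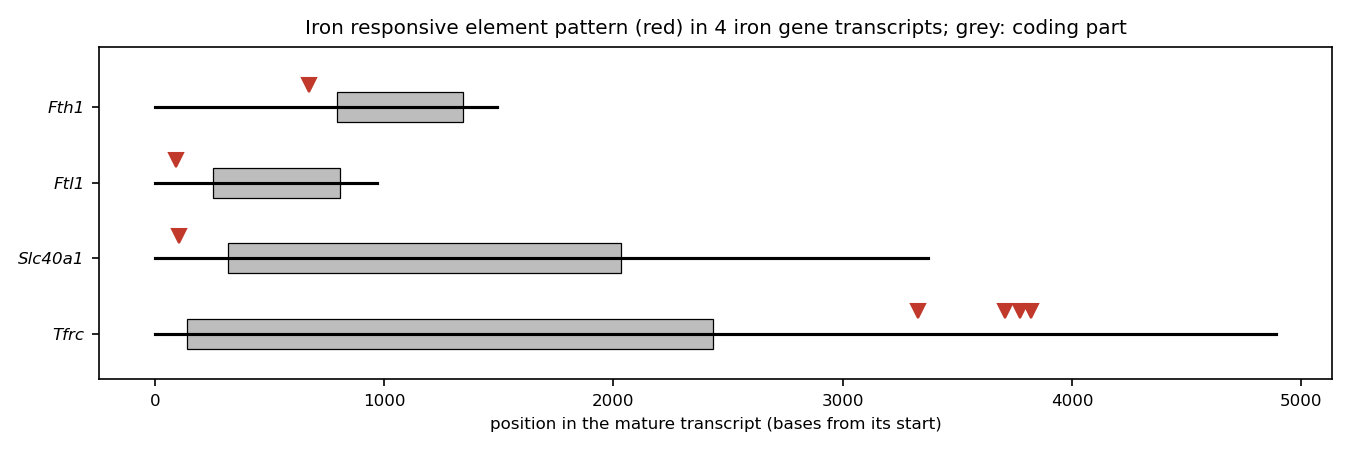
Position of the hairpin pattern (red triangles) in the mature transcripts of Fth1, Ftl1, Slc40a1 and Tfrc, with position in bases from the transcript start on the x axis and the coding part as a grey box. The single sites of Fth1, Ftl1 and Slc40a1 lie before the coding part, and the 4 sites of Tfrc lie after it.

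Gene counts ranged from 49725437 to 64291587 per tumor and from 33622831 to 40239762 per cell sample. Levels are given as CPM, counts relative to library size after TMM scaling. Ctsd stood at 1781 to 2617 CPM in the control tumors and at 360.2 to 1295 CPM in the Ctsd-/- tumors. In cells it stood at 1267 to 4199 CPM in the Ctsd+/+ cultures and at 114 to 192 CPM in the Ctsd-/- cultures. The control and the Ctsd-/- tumors carry different LR codes in the labels, whose meaning is not stated, so that this code and the genotype cannot be told apart in tumors. In cells 8 of the 12 samples share 1 LR code, with both genotypes and both culture times among them. Replicate 1 of both 1% FCS groups carries a code found only there. Replicate 3 of both 1% FCS LT groups carries another code found only there. In these other samples, code and culture time cannot be told apart. The 3 Ctsd+/+ 1% FCS cultures stood apart from the other cells by markers. Their 6 fibroblast markers summed to 1159 to 3045 CPM against 3.03 to 99.8 CPM in the other cultures, with Col1a1 and Pdgfrb highest and Lum at 0, and their 6 epithelial markers summed to 878 to 1666 CPM against 3990 to 9624 CPM. Single markers differed from the sums. Col1a2 and Dcn were low in these cultures, with means of 2.27 and 0.742 CPM. Krt14 had a mean of 38.3 CPM there, against 6.79 and 3.87 CPM in Ctsd-/- 1% FCS and 1% FCS LT. In Ctsd+/+ 1% FCS LT it had 53.1 CPM. Each comparison that uses these cultures therefore also sets a lower epithelial and a higher fibroblast marker sum against the reverse. What part this had in the results on iron genes was not tested.

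In the control tumors, ferritin exceeded the other iron genes by far. Per kilobase of summed exon length, the level of Fth1 was 1716 ± 498 RPKM and that of Ftl1 was 1209 ± 191 RPKM (SD, n = 4). Steap4 followed with 41.7 ± 20.4 RPKM and Aco1 with 23.9 ± 9.17 RPKM, and their spreads overlap. Tfrc stood at 10.6 ± 1.54 RPKM, and the remaining 5 genes lay between Steap3 with 7.83 ± 4.62 RPKM and Ncoa4 with 2.00 ± 0.754 RPKM. In Ctsd+/+ 1% FCS cells the order was different. Ftl1 stood at 401 ± 91.7 RPKM, Fth1 at 127 ± 8.42 RPKM, Tfrc at 56.6 ± 4.64 RPKM and Steap4 at 0.153 ± 0.196 RPKM (SD, n = 3). The values of tumors and cells were set side by side without a test, because they were counted in different strand forms and from different amounts of RNA. The length used matters for these levels. Over the length of the principal transcript alone, Fth1 stood at 3985 RPKM and Ftl1 at 1673 RPKM in the control tumors. In the Ctsd+/+ 1% FCS cells, the corresponding levels were 296 RPKM for Fth1 and 555 RPKM for Ftl1.

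All 10 genes passed the filter on low counts in both materials. In cells, 8 of them passed the threshold (edgeR, adjusted p under 0.05 over all 15178 genes tested) in at least 1 of 5 comparisons, as did 71.5% of all genes, while Ftl1 and Slc11a2 passed it in none. Between the genotypes in 1% FCS, 2 were higher in Ctsd-/- cells (23.5% of all genes tested) and 1 was lower (25.1% of all genes). Between the genotypes in 1% FCS LT, 0 were higher (20.5% of all genes) and 4 were lower (19.1% of all genes). With long-term culture, 1% FCS LT against 1% FCS, Ctsd+/+ cells had 4 higher (23% of all genes) and 1 lower (23.4% of all genes), and Ctsd-/- cells had 1 higher (1.57% of all genes) and 0 lower (0.81% of all genes). The difference between the long-term changes of both lines, which is the interaction of genotype and culture time, was positive for 0 (16.1% of all genes) and negative for 2 of them (14.1% of all genes). For the 0 higher genes between the genotypes in 1% FCS LT, limma-voom gave 1 and DESeq2 gave 0, and both also gave 0 for the lower genes over time in Ctsd-/- cells and for the positive interactions. At an unadjusted p under 0.05 in either direction, 5 of the 10 passed between the genotypes in 1% FCS LT (47.8% of all genes). The same threshold gave 2 of the 10 over time in Ctsd-/- cells (18% of all genes) and 2 in the interaction (40.9% of all genes). The median of the 10 log2 fold changes for genotype was 0.16 in 1% FCS and -0.25 in 1% FCS LT, with 0.47 and -0.05 for the long-term change in Ctsd+/+ and Ctsd-/- cells, and -0.18 for the interaction. Those of all genes lay between -0.00 and 0.01. The comparisons share groups, so that the values of a gene in several of them are not independent.

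**Figure D2:**
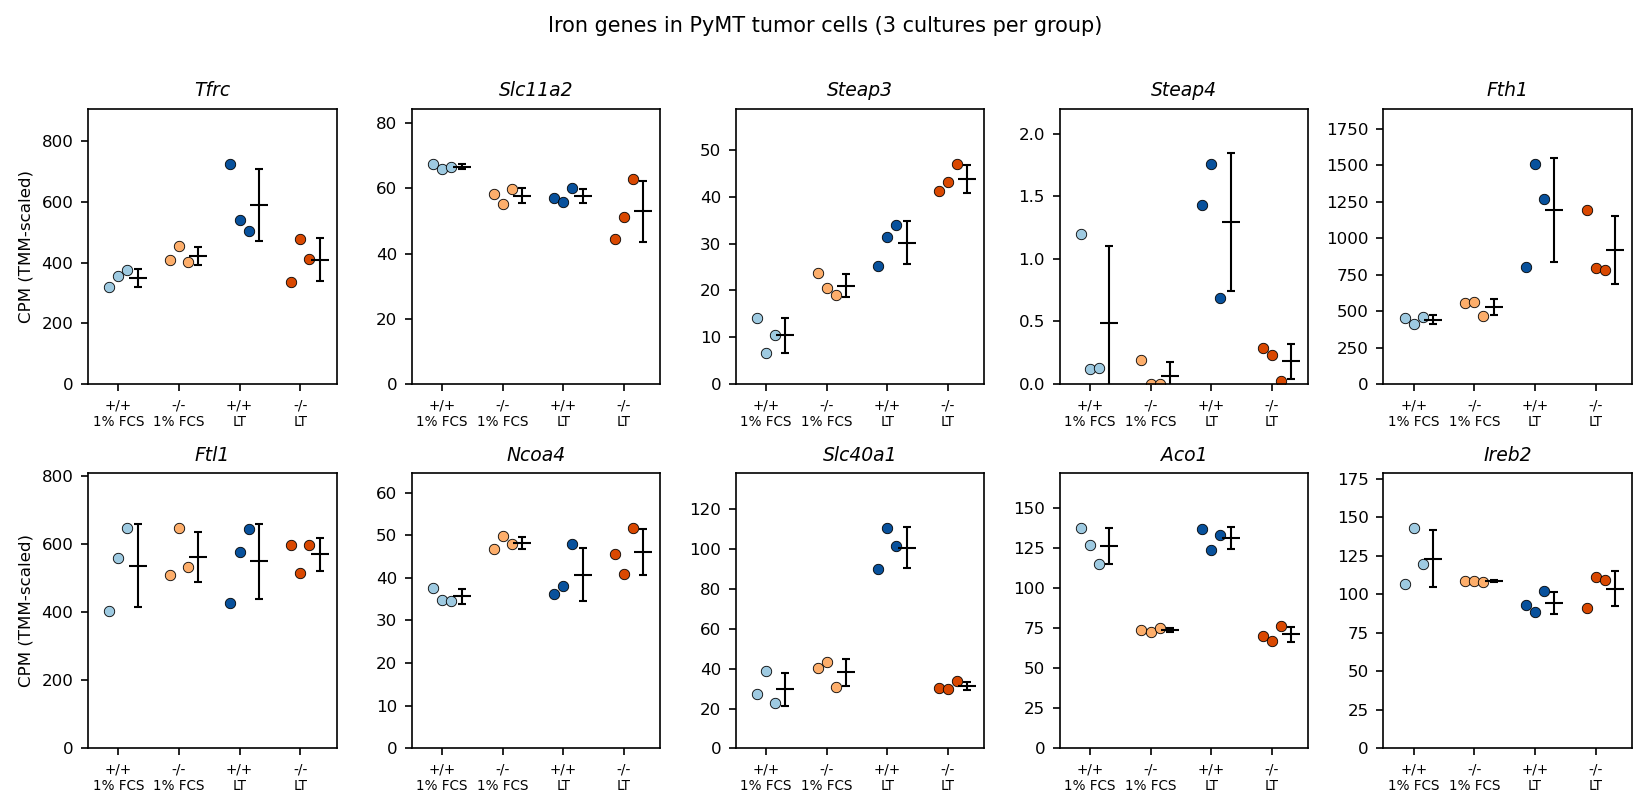
CPM of the 10 iron genes in cells, with 1 panel per gene, 1 point per culture (3 per group) and the group mean with its SD as a bar beside the points, cut at 0. Slc40a1 stands at 90.2 to 110.6 CPM in Ctsd+/+ 1% FCS LT and at 23.0 to 43.6 CPM in the other 3 groups, and Aco1 is lower in all Ctsd-/- cultures than in any Ctsd+/+ culture.

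Positions of genes are those of GRCm38. Among the uptake genes, Tfrc (chr16:32608920-32632794), the receptor for transferrin-bound iron, was measured at 318, 357 and 374 CPM in Ctsd+/+ 1% FCS and at 726, 540 and 503 CPM in Ctsd+/+ 1% FCS LT. The Ctsd-/- cultures had 409, 454 and 401 CPM in 1% FCS and 338, 479 and 413 CPM in 1% FCS LT. By the means, the lowest group was Ctsd+/+ 1% FCS, the highest was Ctsd+/+ 1% FCS LT, and both Ctsd-/- groups lay between. The Ctsd-/- groups overlapped each other, and Ctsd-/- 1% FCS LT also overlapped Ctsd+/+ 1% FCS. In Ctsd+/+ cells Tfrc rose 1.68-fold with long-term culture (log2 fold change 0.75, SE 0.160, adjusted p = 0.00240). Tfrc was lower in Ctsd-/- than in Ctsd+/+ cells in 1% FCS LT (log2 fold change -0.52, SE 0.160, adjusted p = 0.0212). In 1% FCS the genotypes did not overlap either, but the difference did not pass the threshold (log2 fold change 0.27, SE 0.159, adjusted p = 0.187). The interaction of Tfrc was -0.79 (SE 0.225, adjusted p = 0.0204), so that its long-term change differed between both lines. Within the LR code shared by 8 samples, the long-term rise in Ctsd+/+ cells was 0.79 (adjusted p = 0.0133), the genotype difference in 1% FCS LT was -0.63 (adjusted p = 0.0368) and the interaction was -0.86, past the threshold no more (adjusted p = 0.0530). The genotype difference of Tfrc in 1% FCS LT also lost its call without Ctsd+/+ 1% FCS LT replicate 1 (-0.34, adjusted p = 0.105), without Ctsd-/- 1% FCS LT replicate 1 (-0.40, adjusted p = 0.0884) and without Ctsd-/- 1% FCS LT replicate 3 (-0.53, adjusted p = 0.0537). Its interaction lost the call without Ctsd-/- 1% FCS replicate 2 (-0.73, adjusted p = 0.0521) and without Ctsd-/- 1% FCS LT replicate 1 (-0.67, adjusted p = 0.0505).

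Steap3 (chr1:120190757-120272705), which reduces the iron released from transferrin in the endosome, was measured at 14.0, 6.69 and 10.4 CPM in Ctsd+/+ 1% FCS and at 25.2, 31.4 and 34.0 CPM in Ctsd+/+ 1% FCS LT. The Ctsd-/- cultures had 23.6, 20.4 and 18.9 CPM in 1% FCS and 41.2, 43.1 and 47.0 CPM in 1% FCS LT. No group overlapped another, and their order was Ctsd+/+ 1% FCS, Ctsd-/- 1% FCS, Ctsd+/+ 1% FCS LT and Ctsd-/- 1% FCS LT. Steap3 rose 2.91-fold with long-term culture in Ctsd+/+ cells (log2 fold change 1.54, SE 0.223, adjusted p = 0.000178). It rose 2.08-fold in Ctsd-/- cells (log2 fold change 1.06, SE 0.218, adjusted p = 0.0308). These changes were not shown to differ (interaction -0.48, SE 0.308, adjusted p = 0.271). Between the genotypes in 1% FCS, Steap3 was 2.02-fold higher in Ctsd-/- cells (log2 fold change 1.01, SE 0.221, adjusted p = 0.00268), while the difference in 1% FCS LT did not pass the threshold (0.54, SE 0.216, adjusted p = 0.0690). It did so without Ctsd+/+ 1% FCS replicate 1 (0.54, adjusted p = 0.0251) or replicate 2 (0.53, adjusted p = 0.0171). Within the shared LR code the 3 called differences of Steap3 were 1.72 (adjusted p = 0.000504), 1.10 (adjusted p = 0.0280) and 1.20 (adjusted p = 0.00274). The rise in Ctsd-/- cells lost its call when any of the 6 Ctsd-/- cultures or Ctsd+/+ 1% FCS LT replicate 2 was left out, with values of 0.99 to 1.15 and an adjusted p of up to 0.135.

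Steap4 (chr5:7960457-7982213), a metalloreductase of the same family, was close to the limit of counting in cells. Its counts were 40, 4 and 5 in Ctsd+/+ 1% FCS, 8, 0 and 0 in Ctsd-/- 1% FCS, 53, 66 and 27 in Ctsd+/+ 1% FCS LT and 12, 9 and 1 in Ctsd-/- 1% FCS LT. The Ctsd+/+ 1% FCS LT cultures lay above all Ctsd-/- cultures, whereas Ctsd+/+ 1% FCS owed most of its counts to replicate 1. In 1% FCS LT Steap4 was lower in Ctsd-/- cells (log2 fold change -2.81, SE 1.02, adjusted p = 0.0460, and -2.60 within the shared LR code, adjusted p = 0.00225). This call was lost without Ctsd+/+ 1% FCS LT replicate 1 or 2 or without any of the 3 Ctsd-/- 1% FCS LT cultures, with values of -2.29 to -3.32. In 1% FCS the difference of -2.72 (SE 1.22) did not pass the threshold (adjusted p = 0.0841), but it did without Ctsd-/- replicate 1 (adjusted p = 0.0279), which held all the counts of its group. The long-term change of Steap4 in Ctsd+/+ cells (1.42, SE 0.937, adjusted p = 0.238) passed the threshold without Ctsd+/+ 1% FCS replicate 1 (3.31, adjusted p = 0.0220) and within the shared LR code (3.62, adjusted p = 0.000708).

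Slc11a2 (chr15:100387898-100425072), which carries ferrous iron out of the endosome, varied little. It was measured at 67.5, 65.8 and 66.7 CPM in Ctsd+/+ 1% FCS, and at 58.2, 55.3 and 59.8 CPM in Ctsd-/- 1% FCS. After long-term culture it was measured at 57.0, 55.9 and 60.1 CPM in Ctsd+/+ and at 44.6, 51.2 and 62.9 CPM in Ctsd-/- cells. The Ctsd+/+ 1% FCS cultures lay above all others, but neither the genotype difference in 1% FCS (log2 fold change -0.21, SE 0.114, adjusted p = 0.154) nor the long-term change in Ctsd+/+ cells (-0.21, SE 0.114, adjusted p = 0.153) passed the threshold. Of its exon bases 402 (6.33%) lie opposite to exons of the gene Gm5475.

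Of the storage genes, the heavy chain Fth1 (chr19:9980598-9985098), which oxidises iron on its way into the shell, moved with culture time and the light chain Ftl1 did not pass any threshold. Fth1 was measured at 454, 409 and 463 CPM in Ctsd+/+ 1% FCS and at 806, 1511 and 1271 CPM in Ctsd+/+ 1% FCS LT. For Ctsd-/- cells the values were 557, 565 and 467 CPM in 1% FCS and 1193, 795 and 781 CPM in 1% FCS LT. All 6 long-term cultures lay above all 6 cultures in 1% FCS, and the genotypes overlapped in 1% FCS LT. In Ctsd+/+ cells Fth1 rose 2.71-fold (log2 fold change 1.44, SE 0.226, adjusted p = 0.000316, and 1.41 within the shared LR code, adjusted p = 0.00700). The change of 0.80 (SE 0.223) in Ctsd-/- cells did not pass the threshold (adjusted p = 0.0857), and the changes were not shown to differ (interaction -0.64, SE 0.313, adjusted p = 0.150). Without Ctsd+/+ 1% FCS LT replicate 1, which held the lowest Fth1 of its group, 3 further differences passed: the interaction (-0.85, adjusted p = 0.0328), the genotype difference in 1% FCS LT (-0.59, adjusted p = 0.0370) and the change in Ctsd-/- cells (0.80, adjusted p = 0.0450).

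Ftl1 (chr7:45457944-45459884) was measured at 405, 560 and 647 CPM in Ctsd+/+ 1% FCS and at 510, 648 and 534 CPM in Ctsd-/- 1% FCS. After long-term culture it was measured at 429, 576 and 646 CPM in Ctsd+/+ and at 599, 516 and 598 CPM in Ctsd-/- cells. All 4 groups overlapped, and the log2 fold changes lay between -0.01 and 0.07 in the 5 comparisons with SEs of 0.189 to 0.268. The ratio of Fth1 to Ftl1 CPM was 0.715 to 1.12 in Ctsd+/+ and 0.873 to 1.09 in Ctsd-/- cells in 1% FCS. In 1% FCS LT it was 1.88 to 2.62 in Ctsd+/+ and 1.31 to 1.99 in Ctsd-/- cells. Every long-term culture had a higher ratio than every culture in 1% FCS. In tumors the ratio was 2.01 to 5.10 in controls and 2.38 to 3.70 in Ctsd-/- tumors, with overlap. Reads that match several places are not counted. Near copies of Ftl1 held 5.83% to 7.20% of its own counts in tumors and 2.40% to 3.07% in cells. Fth-ps2, the copy of Fth1 that was read, held at most 0.0523%. These shares do not measure the reads lost by matching several places. They therefore do not rank the certainty of both chains. In addition, 109 exon bases of Ftl1 (8.13%) are shared with the miRNA gene Gm22133.

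Ncoa4 (chr14:32159865-32179855), the receptor that delivers ferritin to the lysosome, was measured at 37.5, 34.9 and 34.5 CPM in Ctsd+/+ 1% FCS and at 46.8, 49.7 and 47.9 CPM in Ctsd-/- 1% FCS. The groups did not overlap, and Ncoa4 was 1.35-fold higher in Ctsd-/- cells (log2 fold change 0.43, SE 0.122, adjusted p = 0.0114, and 0.49 within the shared LR code, adjusted p = 0.00619). After long-term culture it was measured at 36.3, 38.0 and 47.8 CPM in Ctsd+/+ and at 45.5, 40.9 and 51.6 CPM in Ctsd-/- cells. These groups overlapped, and the difference of 0.18 (SE 0.122) did not pass the threshold (adjusted p = 0.276). The genotype differences at both culture times were not shown to differ (interaction -0.26, SE 0.172, adjusted p = 0.290).

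Slc40a1 (chr1:45908068-45926523), the exporter ferroportin, showed the largest log2 fold changes with an SE under 1 among the 10 genes. It was measured at 27.3, 39.0 and 23.0 CPM in Ctsd+/+ 1% FCS and at 90.2, 110.6 and 101.9 CPM in Ctsd+/+ 1% FCS LT. For Ctsd-/- cells the values were 40.5, 43.6 and 30.7 CPM in 1% FCS and 30.3, 29.6 and 33.6 CPM in 1% FCS LT. The Ctsd+/+ 1% FCS LT cultures stood above all others, while the other 3 groups overlapped. In Ctsd+/+ cells Slc40a1 rose 3.39-fold with long-term culture (log2 fold change 1.76, SE 0.190, adjusted p = 2.04e-05). The change of -0.30 (SE 0.185) in Ctsd-/- cells did not pass the threshold (adjusted p = 0.444). The difference between these changes was -2.06 on the log2 scale (SE 0.264, adjusted p = 0.000158). Slc40a1 in 1% FCS LT was 3.24-fold lower in Ctsd-/- than in Ctsd+/+ cells (log2 fold change -1.69, SE 0.189, adjusted p = 3.49e-05). In 1% FCS the difference of 0.36 (SE 0.186) did not pass the threshold (adjusted p = 0.127), but it did without Ctsd+/+ replicate 2 (0.61, adjusted p = 0.00998). Within the shared LR code, the rise in Ctsd+/+ cells was 1.70 (adjusted p = 0.00143), the interaction -2.01 (adjusted p = 0.00533) and the genotype difference in 1% FCS LT -1.74 (adjusted p = 0.00153). Macrophages are rich in ferroportin, so their markers were read in the same cultures. The 9 macrophage markers summed to 56.4 to 69.4 CPM in Ctsd+/+ 1% FCS LT and to 9.04 to 30.9 CPM in the other cells. Csf1r made up most of this sum with a mean of 55.2 CPM, whereas C1qa, C1qb, C1qc and Adgre1 had at most 2 counts in any Ctsd+/+ 1% FCS LT culture. Cd68 went the other way from Csf1r between the genotypes. Its means were 3.52 CPM in Ctsd+/+ 1% FCS LT, 10.3 CPM in Ctsd-/- 1% FCS LT and 12.3 CPM in Ctsd-/- 1% FCS. The sum in control tumors was 570 to 1204 CPM. The part of these markers in the level of Slc40a1 was not tested.

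Of the regulators, Aco1 (chr4:40143081-40198338), which encodes iron regulatory protein 1, divided the genotypes at both culture times. It was measured at 137, 127 and 115 CPM in Ctsd+/+ 1% FCS and at 73.8, 72.4 and 75.4 CPM in Ctsd-/- 1% FCS. In 1% FCS LT it was measured at 137, 124 and 133 CPM in Ctsd+/+ and at 69.9, 67.1 and 76.4 CPM in Ctsd-/- cells. The highest Ctsd-/- culture lay below the lowest Ctsd+/+ culture over both times. Aco1 was 1.71-fold lower in Ctsd-/- cells in 1% FCS (log2 fold change -0.78, SE 0.0916, adjusted p = 3.54e-05) and 1.85-fold lower in 1% FCS LT (-0.88, SE 0.0917, adjusted p = 2.02e-05). Within the shared LR code these differences were -0.71 (adjusted p = 0.000990) and -0.93 (adjusted p = 0.000388). Culture time did not move it past the threshold, with 0.05 (SE 0.0909) in Ctsd+/+ and -0.05 (SE 0.0912) in Ctsd-/- cells. The interaction was -0.11 (SE 0.129, adjusted p = 0.566).

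Ireb2 (chr9:54863789-54912530), which encodes iron regulatory protein 2, was measured at 107, 143 and 120 CPM in Ctsd+/+ 1% FCS and at 93.0, 88.4 and 102 CPM in Ctsd+/+ 1% FCS LT. It fell 1.30-fold with long-term culture (log2 fold change -0.38, SE 0.119, adjusted p = 0.0206, and -0.53 within the shared LR code, adjusted p = 0.0129). The call was lost without Ctsd+/+ 1% FCS replicate 2 (-0.25), without Ctsd+/+ 1% FCS LT replicate 1 (-0.37) and without replicate 2 of that group (-0.33). In Ctsd-/- cells Ireb2 was measured at 109, 109 and 108 CPM in 1% FCS and at 91.0, 111 and 109 CPM in 1% FCS LT, and these groups overlapped. The genotypes differed by -0.18 (SE 0.119, adjusted p = 0.228) in 1% FCS and by 0.13 (SE 0.119, adjusted p = 0.403) in 1% FCS LT.

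**Figure D3:**
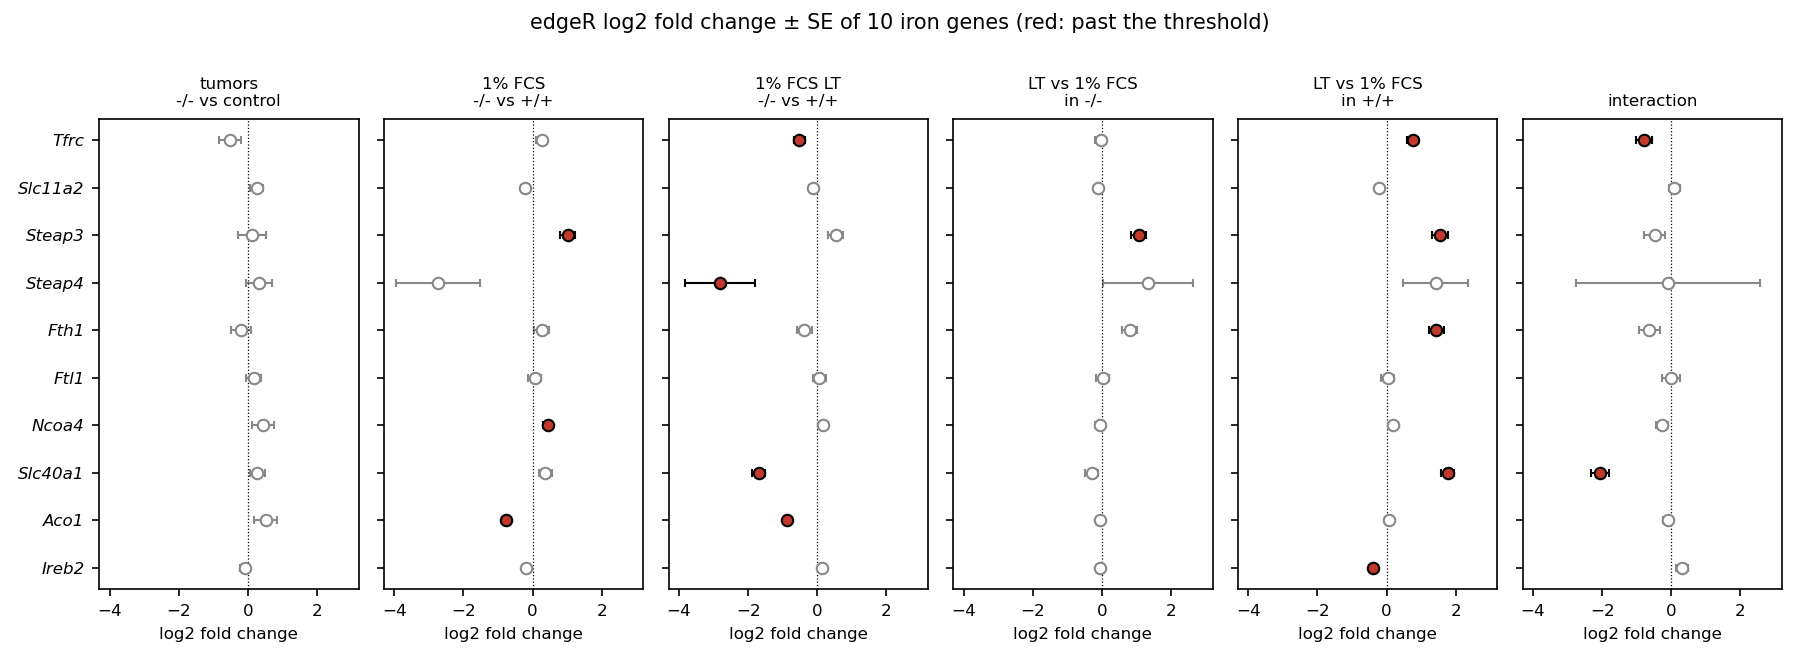
edgeR log2 fold changes of the 10 iron genes with their SE as bars, with 1 panel per comparison, in which filled red points are past the threshold and open points are not. In Ctsd+/+ cells Tfrc, Steap3, Fth1 and Slc40a1 rise with long-term culture and Ireb2 falls, whereas in the tumor panel 0 genes pass the threshold.

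**Figure D4:**
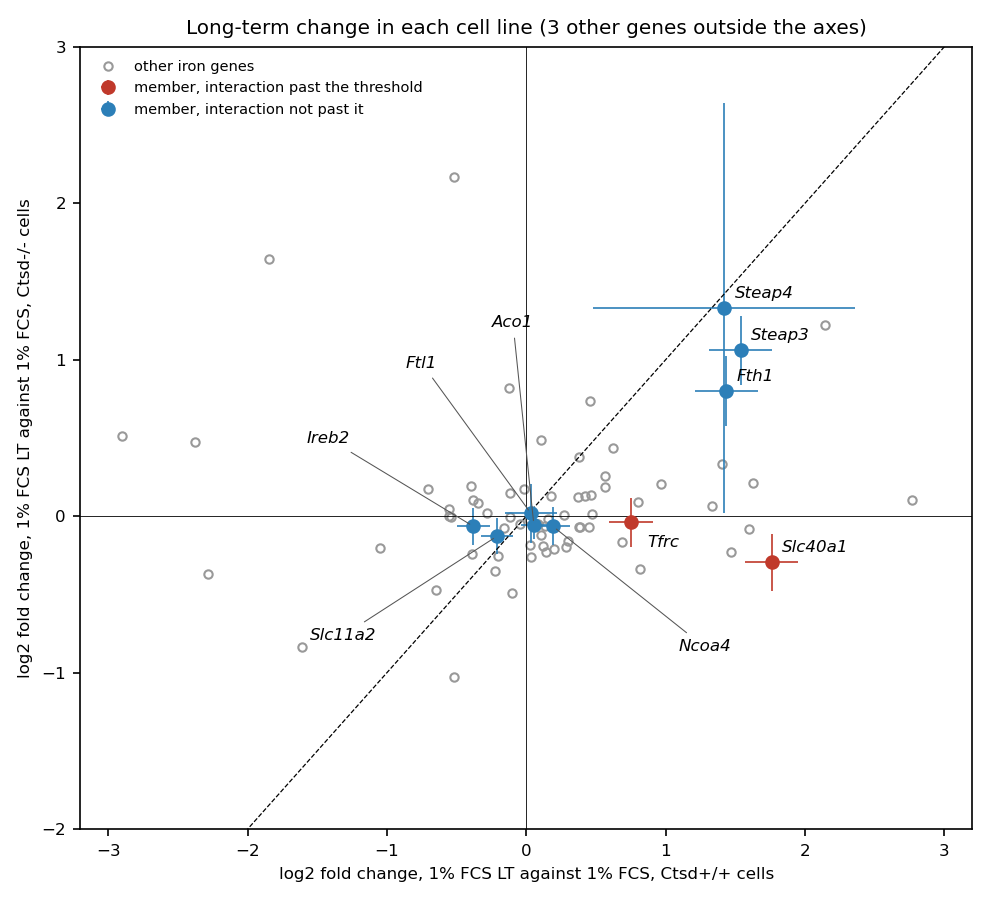
Long-term log2 fold change (1% FCS LT against 1% FCS) of Ctsd+/+ (x axis) and of Ctsd-/- cells (y axis) for the 10 iron genes (filled points with SE) and for 65 of 68 other iron genes (open points, 3 outside the axes), with equal changes on the dashed line. Slc40a1 and Tfrc, in red, lie below the line with interactions of -2.06 and -0.79, and Steap3 lies high on both axes.

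In tumors, 0 of the 10 genes were higher (8.44% of all 18617 genes tested) and 0 were lower (8.27% of all genes) in Ctsd-/- tumors at an unadjusted p under 0.1, which is the study's threshold for this comparison. At an adjusted p under 0.05, 1 gene of all those tested passed (0.00537%) and 0 of the 10. At an unadjusted p under 0.05 edgeR gave 0 of them as well (8.94% of all genes). With the study's threshold DESeq2 gave 0 and limma-voom gave 1, which was Tfrc (-0.63). The log2 fold changes of the 10 genes ranged from -0.52 to 0.51 with a median of 0.21, beside 0.00 for all genes, and every pair of groups overlapped. In these bulk samples, fewer cells of a type and less RNA per cell cannot be told apart.

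Tfrc had the lowest log2 fold change in tumors (-0.52, SE 0.313, adjusted p = 0.618). It was measured at 63.5, 54.2, 67.9 and 77.1 CPM in control tumors and at 51.5, 70.8, 22.5 and 38.0 CPM in Ctsd-/- tumors. Only Ctsd-/- replicate 2 lay within the range of the controls, and without it Tfrc passed the threshold of the study (-0.82, adjusted p = 0.460). Steap3 was measured at 66.5, 68.6, 23.3 and 20.6 CPM in controls and at 34.2, 51.8, 44.8 and 63.0 CPM in Ctsd-/- tumors (0.11, SE 0.406, adjusted p = 0.935). Steap4, scarce in cells, was measured at 180, 194, 83.7 and 68.5 CPM in controls and at 102, 141, 212 and 204 CPM in Ctsd-/- tumors (0.33, SE 0.375, adjusted p = 0.772). Control replicates 3 and 4 were the low ones for both reductases. Slc11a2 was measured at 42.6, 36.3, 35.1 and 28.4 CPM in controls and at 38.1, 42.1, 42.7 and 46.9 CPM in Ctsd-/- tumors (0.25, SE 0.182, adjusted p = 0.666).

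Fth1 was measured at 6361, 3668, 7842 and 5943 CPM in control and at 4629, 6383, 4514 and 5120 CPM in Ctsd-/- tumors (-0.21, SE 0.287, adjusted p = 0.814). The Ctsd-/- tumors lay inside the range of the controls. Ftl1 was measured at 1293, 1822, 1538 and 1825 CPM in control and at 1942, 1724, 1617 and 2013 CPM in Ctsd-/- tumors (0.17, SE 0.218, adjusted p = 0.799). Slc40a1 was measured at 37.2, 41.2, 27.8 and 36.8 CPM in control and at 57.5, 37.1, 35.5 and 42.2 CPM in Ctsd-/- tumors (0.27, SE 0.215, adjusted p = 0.688). Of these 3 genes no group stood apart, unlike Slc40a1 in the long-term cells.

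Ncoa4 was measured at 28.2, 20.1, 13.3 and 13.4 CPM in control and at 16.0, 23.0, 28.6 and 34.3 CPM in Ctsd-/- tumors (0.44, SE 0.313, adjusted p = 0.661). Aco1 was measured at 155, 129, 70.9 and 75.2 CPM in control and at 96.9, 122, 200 and 194 CPM in Ctsd-/- tumors (0.51, SE 0.328, adjusted p = 0.635). In both genes control replicates 3 and 4 were low and Ctsd-/- replicates 3 and 4 were high. Without control replicate 1 the values were 0.71 for Ncoa4 and 0.74 for Aco1, and without Ctsd-/- replicate 1 they were 0.62 and 0.69, and all 4 values passed the threshold of the study. Ireb2 was the steadiest, with 56.5, 53.9, 57.1 and 49.5 CPM in control and 53.7, 51.6, 49.0 and 50.8 CPM in Ctsd-/- tumors (-0.08, SE 0.155, adjusted p = 0.870). The 6 adipocyte markers summed to 295, 918, 224 and 2177 CPM in control and to 2869, 1124, 6859 and 11302 CPM in Ctsd-/- tumors, and 6 of 6 were higher. With these markers as a covariate, the log2 fold changes were 0.00 for Tfrc, 0.03 for Ncoa4 and -0.09 for Aco1. Because the markers were higher in the Ctsd-/- tumors, this fit cannot tell their part from that of the genotype. The 6 fibroblast markers summed to 1742, 2541, 628 and 612 CPM in the control tumors, low in replicates 3 and 4 as were Steap3, Steap4, Ncoa4 and Aco1, and to 1182 to 2104 CPM in the Ctsd-/- tumors. The 4 endothelial markers summed to 73.8, 89.4, 42.8 and 43.5 CPM in control and to 55.3, 87.9, 222 and 210 CPM in Ctsd-/- tumors, low and high in the same replicates as Ncoa4 and Aco1, and 3 of 4 were called higher. Control replicates 3 and 4 also had the highest shares of ambiguous reads, which overlap several genes, with 14.1% and 17.7% against 7.99% to 11% in the other 6 tumors. Control replicate 4 had the lowest count of all tumors (49725437) and a TMM factor of 0.793. The part of the adipocyte, fibroblast and endothelial markers and of these library values in the iron genes was not tested.

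**Figure D5:**
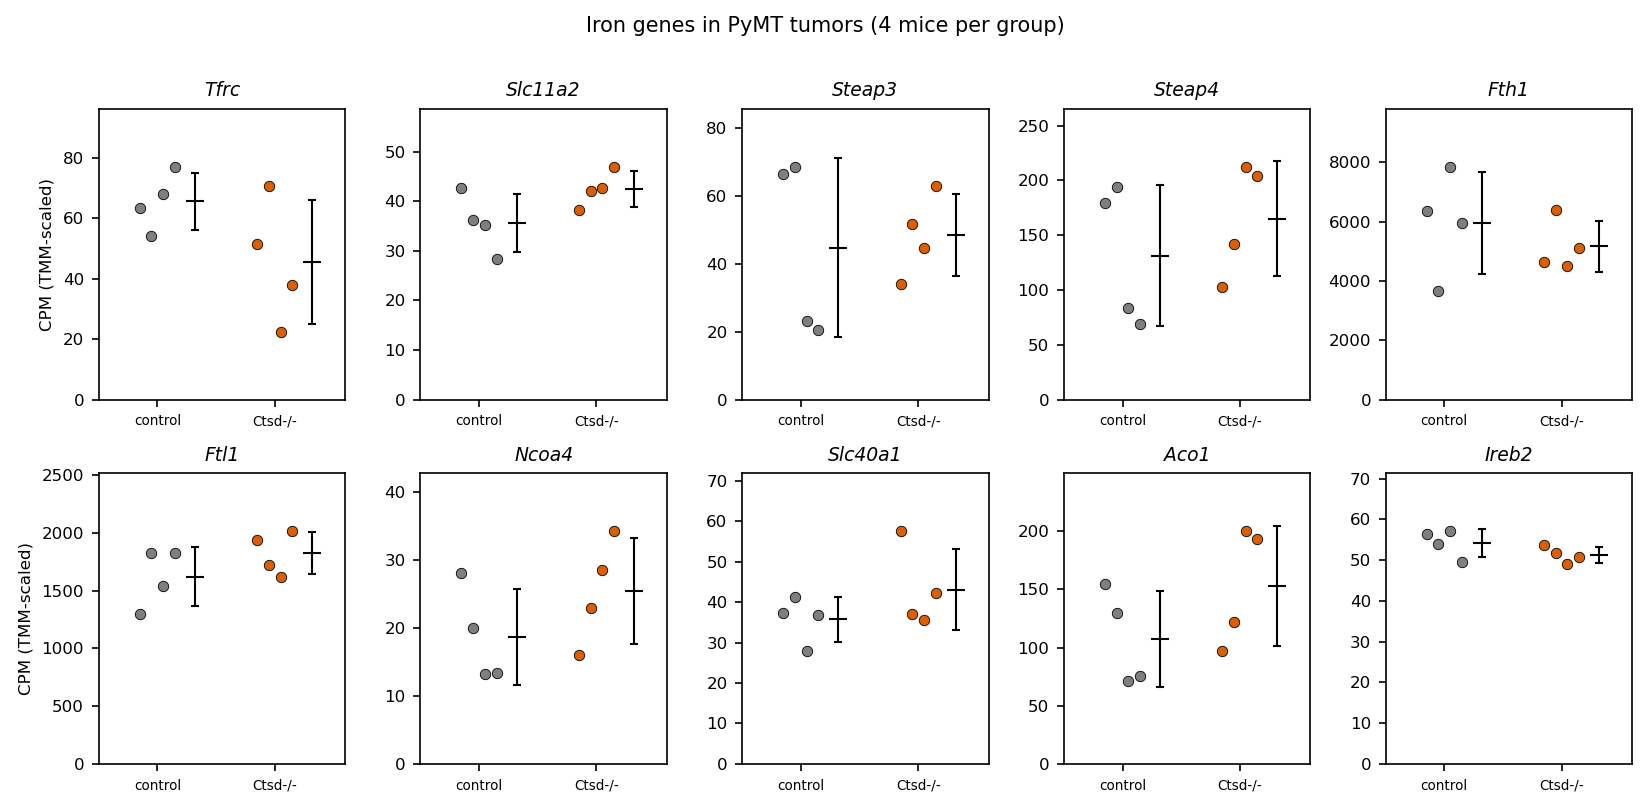
CPM of the 10 iron genes in tumors, with 1 panel per gene, 1 point per mouse (4 per group) and the group mean with its SD as a bar beside the points. Control and Ctsd-/- tumors overlap in all 10 panels, and Tfrc reaches down to 22.5 CPM in the Ctsd-/- tumors.

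Further genes of iron handling were read from 5 lists with 76 genes, of which 68 were tested in cells and 73 in tumors. Between the genotypes in 1% FCS, 24 of the 68 were higher and 15 lower in Ctsd-/- cells, beside 23.5% and 25.1% of all genes tested. In 1% FCS LT 19 were higher and 17 lower (20.5% and 19.1% of all genes). With long-term culture 22 rose and 16 fell in Ctsd+/+ cells (23% and 23.4% of all genes), and 2 rose and 1 fell in Ctsd-/- cells (1.57% and 0.81% of all genes). In tumors 7 of the 73 were higher and 4 lower in the Ctsd-/- group (8.44% and 8.27% of all genes). The median log2 fold change of all 5 lists together lay between -0.18 and 0.12 in the 6 comparisons. Medians of single lists went further. The lowest was -1.20, for iron carriers and systemic control between the genotypes in 1% FCS LT. The highest was 0.88, for other uptake and reduction in the interaction, and 9 genes were tested in each of these lists. Of the 20 tested genes for mitochondrial iron and iron-sulfur clusters, 9 were higher and 5 lower in Ctsd-/- cells in 1% FCS. Of the 17 genes of heme handling, 4 were higher and 4 lower there, and the shares of all genes beside both lists are again 23.5% and 25.1%.

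Steap1, a further member of the STEAP family, went from 23.8 ± 5.68 to 3.18 ± 0.818 CPM in Ctsd+/+ cells (log2 fold change -2.90, adjusted p = 2.04e-06). In Ctsd-/- cells it stood at 24.6 ± 1.12 CPM in 1% FCS and 35.0 ± 6.05 CPM in 1% FCS LT (SD, n = 3), so that the interaction was 3.41 (adjusted p = 1.51e-05). Its direction was thus opposite to that of Steap3 in Ctsd+/+ cells. Prom2, prominin 2, which takes part in the release of ferritin in vesicles, rose from 39.6 ± 8.52 to 270 ± 5.31 CPM in Ctsd+/+ cells (log2 fold change 2.77, adjusted p = 1.59e-06). In Ctsd-/- cells Prom2 stood at 142 ± 36.7 CPM in 1% FCS and 152 ± 28.3 CPM in 1% FCS LT. Slc39a8, a transporter of zinc, manganese and iron, was at 0 to 6 counts in Ctsd+/+ 1% FCS LT and at 49 to 237 counts in the other cells. Heph, the ferroxidase hephaestin that works beside ferroportin, had at most 14 counts in any Ctsd-/- culture and 124 to 582 counts in the Ctsd+/+ cultures, where it was higher at both times. Epas1, an oxygen- and iron-sensitive transcription factor, stood at 61.0 ± 25.1 CPM in Ctsd+/+ 1% FCS LT and at 6.10 ± 1.17 CPM in Ctsd-/- 1% FCS LT (log2 fold change -3.32, adjusted p = 0.000111). In tumors Epas1 was higher in the Ctsd-/- group by the threshold of the study, with overlap. Neo1, neogenin, rose in Ctsd-/- cells from 256 ± 28.3 to 452 ± 37.0 CPM (0.82, adjusted p = 0.00920), and the call was lost without Ctsd-/- 1% FCS replicate 2 (0.79) or 3 (0.77).

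The levels of some iron carriers in tumors and in cells are given side by side, without a test. Lcn2, lipocalin 2, which binds iron through siderophores, stood at 10860 ± 1694 CPM in control tumors, and Ltf, lactoferrin, at 1434 ± 1384 CPM (SD, n = 4). In cells Lcn2 had means of 0.442 to 24.8 CPM. Lcn2 was higher in Ctsd-/- cells at both times, but the call in 1% FCS was lost without Ctsd-/- replicate 1 (1.82, adjusted p = 0.226), without any of the 3 Ctsd+/+ 1% FCS cultures (2.90 to 4.05) and within the shared LR code (2.14, adjusted p = 0.156). With limma-voom the call was lost in 1% FCS (4.48, adjusted p = 0.0742) and in 1% FCS LT (5.53, adjusted p = 0.0855). Ltf had at most 2 counts in any Ctsd+/+ 1% FCS culture and 190 to 1548 counts in Ctsd+/+ 1% FCS LT. Trf, transferrin itself, stood at 340 ± 94.0 CPM in control tumors and had at most 2 counts in every long-term culture. In tumors, Alas1, the first enzyme of heme synthesis, was higher in the Ctsd-/- group (0.73, SE 0.254, 212 against 128 CPM). With the adipocyte markers as a covariate, which cannot be told apart from the genotype there, the value for Alas1 was 0.07. Steap1 was lower in Ctsd-/- tumors (-1.59, SE 0.329), with 2.44 ± 0.733 against 7.33 ± 2.19 CPM and no overlap. Both passed the threshold of the study for tumors, with adjusted p-values of 0.526 for Alas1 and 0.292 for Steap1.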

How the data were processed

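The 10 genes and the lists of further iron genes and markers were chosen with earlier results of these data known. RNA of 8 tumors and 12 cell samples was sequenced. The authors trimmed the reads with Trimmomatic, aligned them to GRCm38 (mm10 in the submitters' processing notes) with STAR and deposited counts per Ensembl gene, without normalization, in 3 strand forms. The annotation release behind these counts is not given in the sources used here. Reads with several positions or genes are not counted, which lowers genes with near copies. Counts regardless of strand were used for tumors, in which 52.8% to 53.7% of stranded counts lay on the opposite strand, and counts on the opposite strand for cells (97.1% to 97.3%). Symbols, exon lengths and transcripts came from GENCODE M21, which holds 45143 of the 45706 gene identifiers.

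Counts were tested in R 4.3.3 with edgeR 4.0.16 (filterByExpr, TMM, two-sided quasi-likelihood test, Benjamini-Hochberg adjustment over all genes tested). A fit held the 8 tumors (18617 genes tested) or all 12 cell samples in 4 groups (15178 genes tested). Biological variation between replicates (common coefficient) came to 0.429 for tumors and 0.217 for cells. Called were genes with an unadjusted p under 0.1 in tumors, the study's rule, and an adjusted p under 0.05 in cells. The SE of a log2 fold change is an approximation that edgeR does not report. It was taken as the absolute change divided by the square root of the F statistic of the test. RPKM values are CPM per kilobase of summed exon length. Replicates of a group differed by more than counting noise (16.54 to 616.1 as chi-square per gene). All 10 genes are named in every comparison. From each comparison the 5 lists of further iron genes give up to 3 higher and 3 lower genes with the largest change among those called whose groups do not overlap, or, for the interaction, with an average log2 CPM above 1. Not all are printed. The settings were checked on simulated counts. Alternatives were DESeq2 1.42.0, limma-voom (limma 3.58.1), RLE size factors, other filters, the replicate number as a block, leaving out each sample, marker covariates in tumors, and for cells the counts regardless of strand and the samples of 1 LR code. Same-numbered samples did not deviate together in every pair, so the numbers were not taken to pair samples.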

Additional observations from a re-analysis of the deposited data

Results flagged for a closer look

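The long-term change differed between Ctsd+/+ and Ctsd-/- cells by the test of the interaction for 2 of the 10 iron genes, Tfrc (-0.79 on the log2 scale) and Slc40a1 (-2.06). Of the 68 further iron genes tested, 11 had a positive and 14 a negative interaction, beside 16.1% and 14.1% of all genes. Those named here were picked by the size of their changes, so that their number is no result. The change was higher in Ctsd-/- cells for Steap1 (3.41), Slc39a8 (4.69), Hfe (3.49) and Neo1 (0.95), and lower for Prom2 (-2.67), Abcb8 (-1.07), Alad (-1.70) and Ltf (-8.93). The size for Ltf is not determined by the counts, because Ctsd+/+ 1% FCS cultures had at most 2. That for Slc39a8 rests on 0 to 6 counts in Ctsd+/+ 1% FCS LT. Hfe had 204, 246 and 42 counts in Ctsd-/- 1% FCS LT, and the genotypes overlapped in 1% FCS LT.

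Steap1 was lower in Ctsd-/- than in control tumors (-1.59), with no overlap, and higher in Ctsd-/- than in Ctsd+/+ cells in 1% FCS LT (3.46), with no overlap. Epas1, Bmp6 and Alad went the other way. They were higher in Ctsd-/- tumors by the threshold of the study, with overlap. In 1% FCS LT they were lower in Ctsd-/- cells, with no overlap. The differences between tumors and cells were not tested.

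In 1 of 52 groups of 4 tumors tested with Dixon's ratio, a sample lay far from the others. This was Slc39a8 with 7.61 CPM in the highest control tumor. Chance alone singles out about 1 in 20 such groups.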

How the results depend on the processing

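Of 15 calls of the 10 iron genes in cells, 10 held under every alternative. These were both of Aco1, all 3 of Slc40a1, Ncoa4, Fth1, Tfrc in Ctsd+/+ cells, and Steap3 in 1% FCS and in Ctsd+/+ cells. In tumors, limma-voom gave 1 lower gene. Between the genotypes in 1% FCS, the lower genes became 2, by Steap4, with DESeq2, without a filter and within 1 LR code. With the replicate number as a block they were 2 as well (Steap4 -2.74, adjusted p = 0.0350), and no other call of the 10 genes changed with the block. The lowest correlation of same-numbered samples was -0.303 in tumors and 0.09997 between the genotypes in 1% FCS, with a mean of 0.254. In 1% FCS LT, 1 gene (Steap3) was higher with limma-voom and without a filter. In Ctsd-/- cells, 2 genes rose with long-term culture with DESeq2 and without a filter (Fth1 added) and within 1 LR code (Steap4 added). The interaction was negative for 1 gene within 1 LR code.

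Directions of uncalled values turned. With the adipocyte covariate the tumor values were 0.0017 for Tfrc, -0.17 for Steap3, -0.24 for Steap4, 0.21 for Fth1, -0.0091 for Ftl1, -0.0888 for Aco1 and 0.0328 for Ireb2. Within 1 LR code Ftl1 stood at -0.0311 between the genotypes in 1% FCS, at -0.0834 and -0.26 for the long-term change in Ctsd-/- and Ctsd+/+ cells and at 0.18 for the interaction, where Slc11a2 stood at -0.035 and Steap4 at 2.67. The interaction of Steap4 was 0.025 with DESeq2, and that of Ftl1 was 0.0061 without a filter. The cause was not tested.

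With each sample left out in turn, the counts of higher and lower genes were 0 to 2 and 0 to 1 in tumors, 2 to 3 and 1 to 2 between the genotypes in 1% FCS, and 0 to 1 and 2 to 4 in 1% FCS LT. They were 0 to 2 and 0 for the long-term change in Ctsd-/- cells, 4 to 5 and 0 to 1 in Ctsd+/+ cells, and 0 and 1 to 3 for the interaction. Values that changed sign were Steap3 in tumors (-0.12 to 0.40), Ftl1 between the genotypes in 1% FCS (-0.10 to 0.20) and in 1% FCS LT (-0.0945 to 0.18), Ftl1 over time in Ctsd-/- (-0.0496 to 0.13) and Ctsd+/+ cells (-0.14 to 0.19), and in Ctsd-/- cells Tfrc (-0.16 to 0.0835), Ncoa4 (-0.16 to 0.0142) and Ireb2 (-0.11 to 0.0234). Aco1 in Ctsd+/+ cells (-0.0071 to 0.11) and the interactions of Ftl1 (-0.18 to 0.16), Slc11a2 (-0.0608 to 0.19) and Steap4 (-1.98 to 4.36) did so too. The length of the principal transcript as a scale was chosen after seeing the data.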
